A study of Mus musculus with 20 samples.

Results

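A set of 9 inhibitory receptors of leukocytes and the phosphatase that they recruit were described here in mouse epididymal fat: Cd72, Pirb, Lilrb4a, Cd300a, Sirpa, Lair1, Pilra, Cd33, Cd22 and Ptpn6. The 10 genes were found by symbol among the 14776 genes of the deposited expression table, whose Ensembl identifiers were matched to GENCODE M21, and all 10 were present and above 0 in each mouse. They were chosen by their known role and with the difference between treated and untreated obese mice in view, since Cd72 had the largest fall with treatment among the genes whose mice did not overlap. For the 10 genes the values of that comparison are therefore given as a description, without p-values. Other genes named beside them carry their adjusted p-values. Polyadenylated RNA was measured in epididymal white fat of 20 male C57BL/6J mice. The NC group (n = 6) was kept on maintenance feed. The HFD group (n = 7) was fed a diet with 60% of its energy as fat and received saline by gavage. The SZ-A group (n = 7) was fed the same diet and received by gavage 400 mg/kg per day of SZ-A, the alkaloids of Ramulus Mori (Sangzhi), the twig of mulberry. The mice were 6 weeks old at the start, and diets ran for 14 weeks before gavage. The HFD and SZ-A mice were then gavaged for 6 weeks more while the high-fat diet went on. No gavage is described for the NC mice. Diet and gavage therefore cannot be told apart in comparisons with NC, which are worded below as the diet. No group carried an altered allele. The tissue was taken whole, with its fat cells, vessels and leukocytes together.

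The receptors of this family sit on macrophages, granulocytes, dendritic cells and B cells and raise the threshold for activation. Their tails inside the cell carry immunoreceptor tyrosine-based inhibitory motifs (ITIMs), a tyrosine in a short fixed setting that kinases of the Src family phosphorylate. The phosphorylated motif binds phosphatases with SH2 domains, chiefly SHP-1, the product of Ptpn6, which remove phosphate from activating receptors, adaptors and kinases. Several of the genes have an activating twin that pairs with the adaptor DAP12 or the Fc receptor gamma chain. In obesity the epididymal fat of mice is known for filling with macrophages that gather around dying fat cells.

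The coding sequence of the motifs is shown first, since it is what the receptors share. The pattern searched in the translated GENCODE M21 transcripts was isoleucine, valine, leucine or serine, any residue, tyrosine, any pair of residues, then leucine, isoleucine or valine. Each line gives the coding strand 5′ to 3′ on GRCm38, with the codon of the motif's tyrosine in capitals.
Cd72 first motif, chr4:43454498-43454515, minus strand: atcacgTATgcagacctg
Cd72 second motif, chr4:43454306-43454323, minus strand: ctcaccTACgagaatgtg
Sirpa first motif, chr2:129629954-129629971, plus strand: atcacaTACgcagacctg
Sirpa second motif, chr2:129630077-129630094, plus strand: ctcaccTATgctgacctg
Pirb second motif, chr7:3712786-3712803, minus strand: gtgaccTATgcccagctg
Pirb last motif, chr7:3712696-3712713, minus strand: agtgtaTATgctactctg
Lilrb4a second motif, chr10:51496194-51496211, plus strand: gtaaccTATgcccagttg
Lair1 first motif, chr7:4009790-4009807, minus strand: gtgacgTATatccagctg
Cd300a first motif, chr11:114899846-114899863, plus strand: gtggaaTATagcacattg
Pilra motif, chr5:137823571-137823588, minus strand: atcgtgTATgcttccatc
Cd22 first motif, chr7:30867494-30867511, minus strand: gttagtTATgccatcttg

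All of these lie in coding exons. Cd22, a sialic acid-binding lectin best known from B cells, had 4 matches in a tail of 141 residues. Pirb, the mouse counterpart of the human LILRB receptors, had 3 matches in 178 residues, and Sirpa, the receptor for the "don't eat me" protein CD47, had 3 in 117 residues together with 1 match to the related switch motif (ITSM). Cd72, a C-type lectin-like receptor whose tail lies at the protein's start, had 2 matches in 95 residues. Lilrb4a, Cd300a and Lair1 had 2 matches each. Pilra had 1 ITIM match and 1 ITSM match. Cd33, a sialic acid-binding lectin, had 0 matches in its 66-residue tail, so in the mouse it falls under the family's name by descent and not by this pattern. Ptpn6 is the phosphatase and has no membrane stretch. Matches outside the tails, of which Cd33 has 1, are not counted here.

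**Figure D1:**
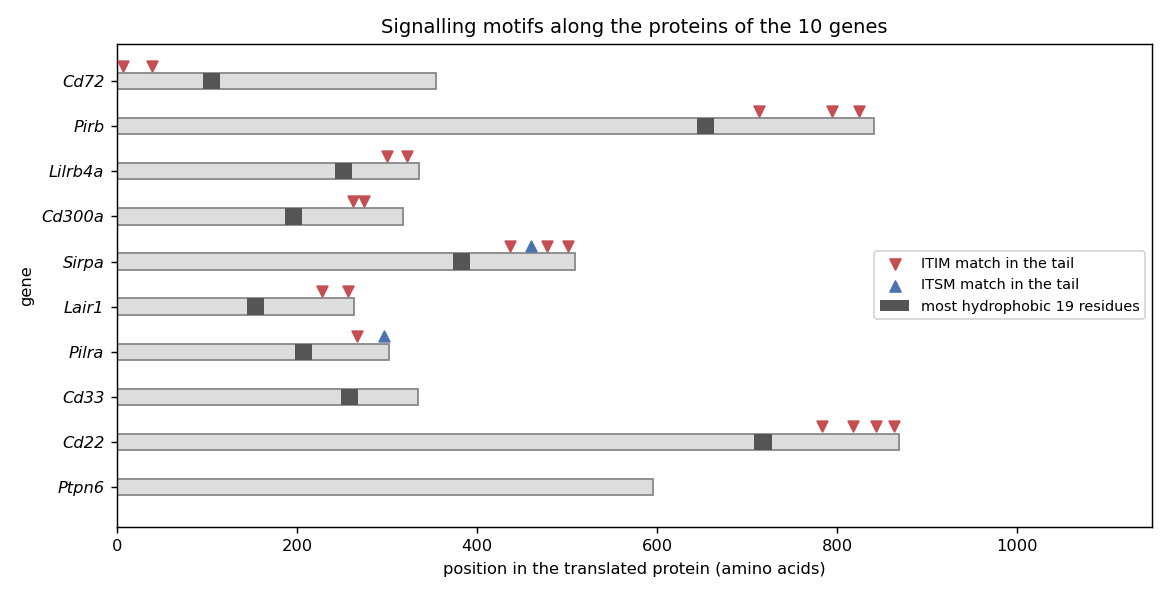
Position of the ITIM and ITSM matches that lie in the tail inside the cell, along the translated protein of each gene in amino acids, with the most hydrophobic stretch in dark grey. Cd72 carries its 2 tail matches before the membrane stretch, the other receptors with a tail match carry theirs after it, and Cd33 shows 0 matches in its tail.

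Reads on genes, recovered from the deposited FPKM, which scales fragments by exon length and library size,, ran from 13567667 to 19388628 per mouse. The labels give no batch. NC replicate 6 stood apart, with the lowest summed level of adipocyte markers (148 FPKM, against up to 8366 in NC) and of macrophage markers (88.9 FPKM) and the highest of the epididymis markers Spint2 and Adgrg2 (659 FPKM, against 2.65 to 5.72 in HFD). Both epididymis markers also moved with the groups, lower in HFD than in NC (median log2 fold change -3.67) and, in SZ-A against HFD, higher (2.05), each called and without overlap, with SZ-A replicates 2 and 7 at 170 and 93.8 FPKM. Mitochondrial reads took 3.30 to 8.34% in NC, 1.67 to 2.92% in HFD, below every NC mouse, and 1.67 to 11.6% in SZ-A, the highest in replicate 5. The part of these shifts in the results was not tested. Results that move without either mouse are given both ways. Lilrb4a shares 96.0% of its aligned coding bases with Lilr4b, and Pirb shares 94.7% with Pira2. Reads may therefore be split between these copies, and the values of Lilrb4a and Pirb are uncertain to that extent. Pira2 itself had no values in the deposited data. Cd72 shares 1423 exon bases with Tesk1 on the opposite strand, and whether counting used strand is not given in the sources used here. Lilrb4a shares 1846 exon bases with Gm49339 on the same strand, which counting by strand would not separate. All values of Lilrb4a below carry that limit as well. The 12 macrophage markers (12 of 12 measured) summed to 88.9 to 830 FPKM in NC mice, to 3530 to 9329 in HFD mice and to 1419 to 4803 in SZ-A mice. They moved with every result below, and in whole tissue fewer cells of a type and less RNA per cell cannot be told apart.

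With the high-fat diet the whole set rose. All 10 genes were called higher in HFD than in NC at an adjusted p below 0.05 (limma with Benjamini-Hochberg adjustment over 14706 genes), where 21.0% of all genes tested were called higher. Of them, 8 also passed the stricter rule that added a log2 fold change above 1.5, against 5.43% of all genes, and in the same 8 no NC mouse reached any HFD mouse, against 12.7% of all genes. Pilra and Cd33 were the exceptions to both, though Pilra passed the stricter rule with a pseudocount of 0.1 and with voom. The HFD mice of this comparison are those against which the SZ-A mice were set when the genes were chosen. The median log2 fold change was 2.56 over the 10 genes and -0.04 over all genes. Fold changes throughout are differences of mean log2(FPKM + 1), which understate the change of genes at low level.

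Sirpa had the highest level of the set. It ran from 1.86 FPKM through a median of 10.1 to 16.6 in NC and from 118 through 149 to 216 in HFD. The 2 groups lay far apart, and the log2 fold change was 4.16 (SE 0.35, adjusted p = 8.72e-07). Pirb stood at 0.276, 1.71 and 4.0 FPKM (lowest, median and highest) in NC and at 31.1, 41.9 and 70.1 in HFD, a log2 fold change of 4.04 (adjusted p = 2.55e-07, SE 0.29). Cd300a, which binds the phosphatidylserine and phosphatidylethanolamine of dying cells, stood at 1.43, 2.31 and 3.60 FPKM in NC and at 29.8, 43.6 and 68.7 in HFD. Its log2 fold change was 3.82 (SE 0.20, adjusted p = 2.49e-08), the smallest adjusted p of the 10 genes.

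Cd72 and Lair1 started from a low level and had the largest ratios of group means. Cd72 stood at 0.261, 0.403 and 0.968 FPKM in NC, 13 to 62 reads a mouse, and at 9.20, 13.6 and 21.5 in HFD, a 27.3-fold higher mean. Its log2 fold change was 3.29 (SE 0.20, adjusted p = 5.88e-08). Lair1, the receptor for collagens, stood at 0.129, 0.305 and 1.05 FPKM in NC and at 7.20, 8.63 and 17.8 in HFD, a 26.4-fold higher mean. The log2 fold change of Lair1 was 3.05 (SE 0.22, adjusted p = 2.79e-07). In neither gene did the groups overlap.

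Lilrb4a rose by 2.08 on the log2 scale (SE 0.29, adjusted p = 9.65e-05), from a mean of 0.866 ± 0.781 FPKM (SD, n = 6) to 6.77 ± 2.81 (SD, n = 7). Cd22 rose by 1.90 (SE 0.15, adjusted p = 4.26e-07), from 0.371 ± 0.301 to 4.08 ± 0.771 FPKM. The NC level of Cd22 rested on 3 to 82 reads a mouse. Ptpn6 rose by 1.88 (SE 0.34, adjusted p = 6.43e-04), from 8.59 ± 6.10 to 30.2 ± 8.35 FPKM, and its highest NC mouse, replicate 1 at 19.3 FPKM, lay just under its lowest HFD mouse at 19.6. SHP-1 is also made by epithelia, and the same mouse had the second highest epididymis markers of the NC group. NC replicate 6, with the highest, had Ptpn6 at 8.16 FPKM. NC replicates 3, 5, 4, 2 and 1 stood in the same order on both. Their Ptpn6 was 3.04, 3.83, 5.72, 11.5 and 19.3 FPKM, and their summed epididymis markers 35.1, 46.3, 46.6, 87.2 and 208 FPKM. Over the 20 mice the deviations of Ptpn6 and of these markers from their group means had a correlation of 0.0718. Of 8 listed epididymis markers 2 were measured. The part of that tissue in the Ptpn6 values was not tested.

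Pilra and Cd33 changed least on the scale of log2(FPKM + 1). Pilra ran from 0.0888 to 1.11 FPKM in NC and from 0.930 to 4.10 in HFD, and its log2 fold change was 0.94 (SE 0.23, adjusted p = 0.00559). Its mean was 3.82-fold higher in HFD than in NC, beside 3.52-fold for Ptpn6. With a pseudocount of 0.1 the log2 fold change of Pilra was 1.91 and with voom 2.20, past the stricter rule in both. Cd33 ran from 0.124 to 2.20 FPKM in NC and from 1.67 to 4.27 in HFD, and its log2 fold change was 0.67 (SE 0.24, adjusted p = 0.0368). The call on Cd33 rested on single mice. Without NC replicate 6 its log2 fold change was 0.49 (adjusted p = 0.0600), without HFD replicate 1 it was 0.56 (adjusted p = 0.0708), and 8 of the 13 fits that left out a mouse lost the call.

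**Figure D2:**
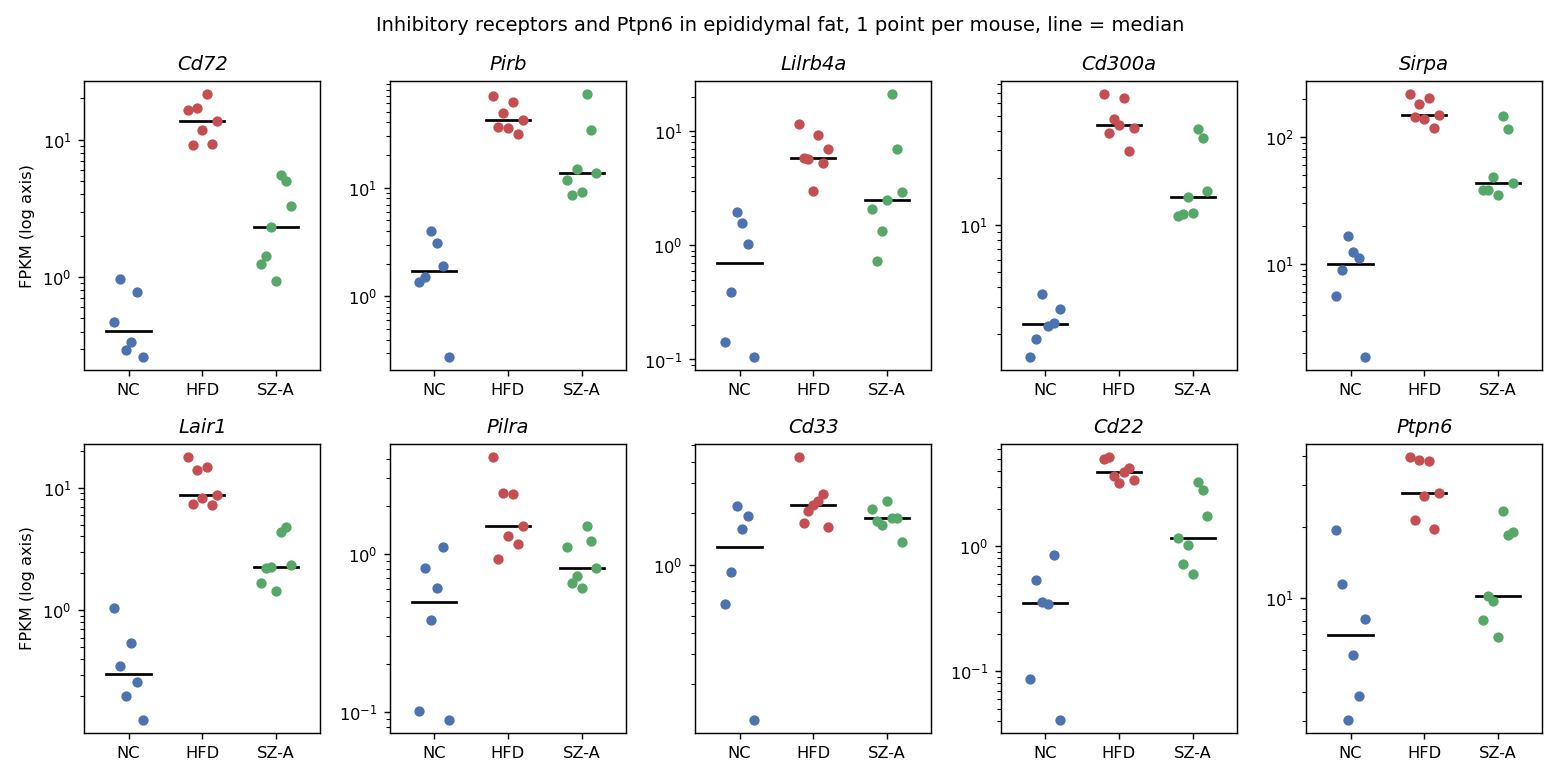
FPKM of each gene on a log axis, by group (NC, HFD, SZ-A), 1 point per mouse with the group median as a line. HFD mice lie above all NC mice in 8 panels, and SZ-A mice lie below all HFD mice in the panels of Cd72 and Lair1.

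In SZ-A mice the same genes stood between the other groups. All 10 fitted differences from HFD were negative, with a median log2 fold change of -1.23 against 0.03 over all genes. Of them, 8 passed the adjusted p threshold, all but Lilrb4a and Cd33, against 13.3% of all genes called lower. Cd72 and Lair1 alone passed the stricter rule (0.558% of all genes) and alone had no overlap between HFD and SZ-A mice (4.01% of all genes). These counts describe the comparison by which the genes were chosen and nothing is read from them. The stricter rule took 4 of the 10 genes with voom and 5 without SZ-A replicate 5, and fits that left out single mice called 6 to 9 of them, the highest without that same mouse.

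Cd72 in SZ-A mice ran from 0.930 through 2.32 to 5.53 FPKM, and the highest of these lay below the lowest HFD mouse at 9.20. The mean was 19.9% of the HFD mean, with a log2 fold change of -2.08 (SE 0.28, 95% interval -2.68 to -1.48). The interval does not allow for the choice of Cd72 on this comparison, so its distance from 0 is a description only. Just behind Cd72 among falls without overlap came Pik3ap1, an adaptor for PI3 kinase, at -2.05 and Glipr1 at -2.0. Tesk1, the gene on the opposite strand, had means of 9.52 FPKM in HFD and 5.91 in SZ-A. Its log2 fold change was -0.68 (adjusted p = 0.0498), and its highest SZ-A mouse at 9.43 FPKM lay within the HFD range of 6.62 to 13.4.

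Lair1 ran from 1.43 through 2.25 to 4.79 FPKM in SZ-A mice, with the lowest HFD mouse at 7.20. Its mean was 24.4% of that in HFD, and the log2 fold change was -1.70 (SE 0.24). Sirpa followed with -1.49 (SE 0.31), Cd300a with -1.31 (SE 0.29), Pirb with -1.30 (SE 0.39), Ptpn6 with -1.17 (SE 0.26) and Cd22 with -1.03 (SE 0.21). In each of these 5 genes the SZ-A group overlapped the HFD group. For Sirpa, 5 SZ-A mice lay between 34.6 and 48.5 FPKM, and replicates 5 and 6 stood at 145 and 114 beside a lowest HFD mouse of 118.

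Pirb and Lilrb4a were set by a single mouse more than the others. Pirb in SZ-A replicate 5 was 72.7 FPKM, above the highest HFD mouse, while the other 6 ran from 8.59 to 33.7. Without that mouse the log2 fold change of Pirb was -1.63. Lilrb4a in the same mouse was 21.1 FPKM against 0.727 to 6.95 in the other 6, and its log2 fold change of -0.75 (SE 0.46) became -1.14 without it. SZ-A replicate 6, at 33.7 FPKM for Pirb and 6.95 for Lilrb4a, also lay above the lowest HFD mice at 31.1 and 2.97. Replicates 5 and 6 had the highest summed macrophage markers of the SZ-A group (4803 and 3591 FPKM). The part of these markers was not tested. Pilra had a log2 fold change of -0.55 (SE 0.19) and Cd33 one of -0.22 (SE 0.14). Cd33 was the steadiest gene of the set in SZ-A mice, from 1.35 to 2.36 FPKM.

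**Figure D3:**
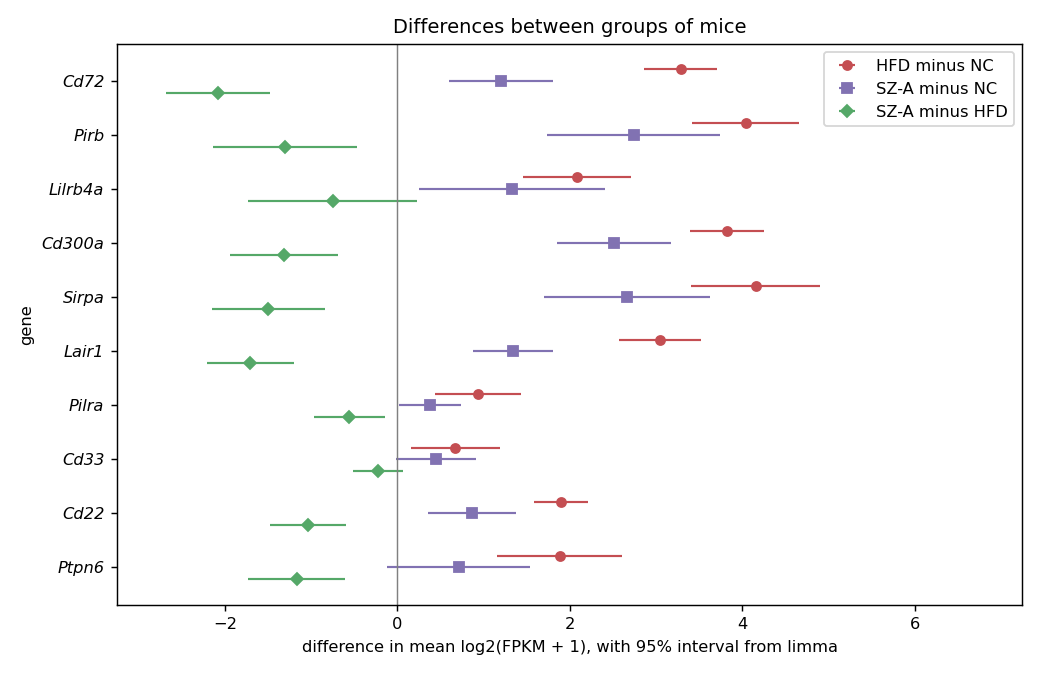
Difference in mean log2(FPKM + 1) with its 95% interval from limma for the 10 genes in 3 comparisons of mouse groups. The genes were chosen with SZ-A minus HFD in view, for which its intervals do not allow. HFD minus NC lies above 0 for all 10 genes, SZ-A minus HFD lies below 0 for all 10 with the intervals of Lilrb4a and Cd33 reaching 0, and SZ-A minus NC lies above 0 with the intervals of Cd33 and Ptpn6 reaching 0.

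Against lean mice, part of the set was still higher after treatment. In all, 5 genes were called higher in SZ-A than in NC (limma, adjusted over 14718 genes), where 4.15% of all genes were called higher: Pirb (log2 fold change 2.74, SE 0.46, adjusted p = 0.00402), Sirpa (2.66, SE 0.45, adjusted p = 0.00387), Cd300a (2.51, SE 0.31, adjusted p = 6.34e-04), Lair1 (1.35, SE 0.22, adjusted p = 0.00285) and Cd72 (1.21, SE 0.28, adjusted p = 0.0244). The first 3 passed the stricter rule, against 1.73% of all genes, and 6 did with a pseudocount of 0.1, 5 with voom and 1 with a replicate block. In the first 4 no NC mouse reached an SZ-A mouse, against 3.22% of all genes, whereas the highest NC mouse for Cd72 at 0.968 FPKM stood above the lowest SZ-A mouse at 0.930. The SZ-A mice of this comparison are the same as in the one with HFD. The count was 5 without NC replicate 6 and 5 without SZ-A replicate 5, and the call on Cd72 was lost without NC replicate 1 (adjusted p = 0.0567), NC replicate 4 (0.0519) or SZ-A replicate 6 (0.0526).

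The other 5 genes did not pass. Cd22 had a log2 fold change of 0.87 (95% interval 0.36 to 1.38, adjusted p = 0.0530), and Lilrb4a had 1.33 (95% interval 0.25 to 2.41, adjusted p = 0.163). Ptpn6 had 0.71 (95% interval -0.11 to 1.54, adjusted p = 0.336), Cd33 0.45 (adjusted p = 0.279) and Pilra 0.38 (adjusted p = 0.232). The intervals leave room for differences of more than 1 log2 unit in Lilrb4a, Ptpn6 and Cd22.

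The order of levels within a group can be read from FPKM, which is scaled by exon length. In HFD mice it ran Sirpa, Cd300a, Pirb, Ptpn6, Cd72, Lair1, Lilrb4a, Cd22, Cd33 and Pilra by group mean. Only the step from Sirpa to Cd300a was free of overlap between the ranges of the 7 mice. Cd300a stood above Pirb in 3 of 7 mice and Cd72 above Lair1 in 6 of 7. In NC mice Sirpa was first and Ptpn6 second, at 9.45 ± 5.21 and 8.59 ± 6.10 FPKM (SD, n = 6), and Sirpa was the higher in 3 of 6 mice. Cd72 took place 5 of the 10 in HFD, place 6 in SZ-A and place 7 in NC.

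Since the genes mark leukocytes, each was also set against the geometric mean of the 12 macrophage markers in the same mouse, whose median was 15.9 FPKM in NC mice, 137 in HFD mice and 49.3 in SZ-A mice. On this scale Cd72 stood at a median of 4.75% of the markers in NC mice, 8.99% in HFD mice and 4.44% in SZ-A mice. The 7 HFD mice ran from 6.74 to 11.6% and the 7 SZ-A mice from 2.11 to 6.71%, so the groups just failed to touch. Cd72 was the 1 gene in the whole table with no overlap in that direction (0.00681% of all genes), in the comparison by which it was chosen. The NC mice, from 1.10 to 7.33%, overlapped both groups. Without NC replicate 6 the highest NC mouse was at 6.55%, below the lowest HFD mouse.

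Pirb and Sirpa rose beyond the geometric mean of the markers with the diet, though not beyond each marker. On the log2 scale Adgre1 (5.16) and Cd68 (5.05) rose more than Sirpa (4.16) and Pirb (4.04). The other markers rose less, down to 0.67 for Mertk. The 7 markers of lipid-associated macrophages, outside these 12, all rose more than both genes, by 5.04 to 6.95. Pirb had a median of 12.7% of the markers in NC (7.77 to 16.6%), 31.2% in HFD (26.3 to 33.4%) and 28.5% in SZ-A (20.8 to 63.8%). Sirpa had 61.9% in NC (52.2 to 66.8%), 106% in HFD (103 to 115%) and 94.9% in SZ-A (78.5 to 127%). On this scale 88.6% of all genes fell from NC to HFD without overlap and 0.449% rose without overlap. In both genes every HFD mouse lay above every NC mouse. In both, too, every SZ-A mouse lay above every NC mouse, against 0.421% of all genes. The HFD and SZ-A mice overlapped. Cd300a had medians of 13.7, 31.2 and 30.7% in NC, HFD and SZ-A, but NC replicate 6, with few macrophage transcripts, stood at 81.8%. Without that mouse the NC mice ran from 11.97 to 14.94% for Cd300a. They then lay below all HFD mice (26.15 to 35.15%) and all SZ-A mice (26.96 to 37.53%). Lair1 had medians of 2.63, 6.43 and 4.30%, with overlap in all comparisons.

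The remaining 5 genes differed in direction on this scale. Cd33 fell from a median of 7.24% of the markers in NC to 1.32% in HFD without overlap, as did 88.6% of all genes, and stood at 3.27% in SZ-A. Ptpn6 had medians of 54.1, 20.4 and 19.9%, and its NC mice spread from 11.5 to 229%. The highest was NC replicate 6, with the fewest macrophage transcripts and the highest epididymis markers of the group. Pilra had 2.86, 1.12 and 1.38%, Lilrb4a 4.47, 4.61 and 5.63%, and Cd22 1.60, 2.44 and 2.87%. No test was run on these ratios, since the markers themselves moved with the groups.

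**Figure D4:**
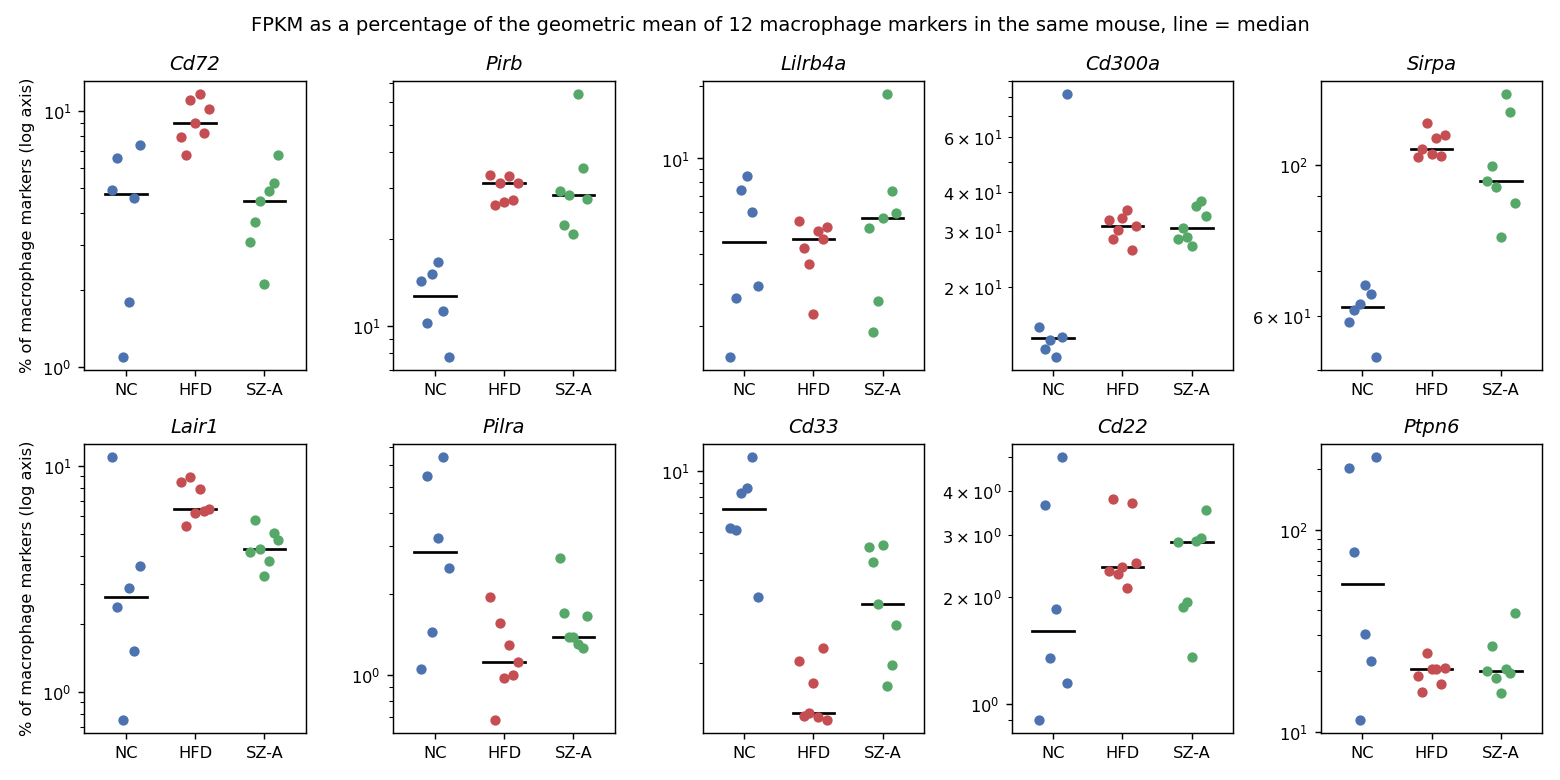
FPKM of each gene as a percentage of the geometric mean of 12 macrophage markers in the same mouse, on a log axis, 1 point per mouse with the group median as a line. Cd72 separates HFD mice (6.74 to 11.6%) from SZ-A mice (2.11 to 6.71%), and Pirb and Sirpa separate HFD and SZ-A mice from NC mice.

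Cd72 and Cd22 are best known from B cells, so B cell markers stood beside them. Of 9 listed markers 3 were measured (Cd79a, Cd79b and Bank1, and the other 6 are not analysed here). They summed to 0.152 to 9.38 FPKM in NC mice, to 2.94 to 17.5 in HFD mice and to 1.06 to 11.4 in SZ-A mice, and 0 of the 3 passed in any of the 3 comparisons. Cd79a, part of the B cell receptor, had a log2 fold change of 0.47 (adjusted p = 0.381) and Cd79b of 0.46 (adjusted p = 0.419) between HFD and NC, where Cd22 had 1.90 and Cd72 3.29. Among mast cell markers 3 of 4 measured rose with the diet and 3 fell with treatment, as did 7 of 7 markers of lipid-associated macrophages in both directions. Both measured neutrophil markers rose with the diet and 0 fell with treatment. Of the 7 T cell markers 1 rose with the diet (Cd2) and 1 fell with treatment (Cd8a), and of 3 dendritic cell markers 1 did both (Flt3). The part of these cells in the results was not tested.

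The motifs need kinases and effectors, and these moved unevenly. Of 5 Src family kinases, 3 rose and 1 fell with the diet, with a median log2 fold change of 1.28. Lyn, a kinase of B cells and myeloid cells, had 2.03 (SE 0.32, adjusted p = 2.29e-04), Fgr 1.39 (adjusted p = 0.00283) and Fyn 1.28 (adjusted p = 5.27e-04). Yes1, found in most cell types, fell by 0.75 on the log2 scale (adjusted p = 5.34e-04). In SZ-A against HFD 2 of the 5 fell: Lyn (-0.77, adjusted p = 0.00189) and Fyn (-0.71, adjusted p = 0.00215).

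Of 8 other effectors 7 rose with the diet (median 1.33) and 5 fell with treatment (median -0.61). Dok2, an adaptor that restrains Ras, had 3.23 (SE 0.32, adjusted p = 3.64e-06), Dok3 1.89 (adjusted p = 9.98e-05) and Inpp5d, the lipid phosphatase SHIP-1, 1.57 (SE 0.55, adjusted p = 0.0345). With treatment Dok2 had -1.07 (adjusted p = 0.0287), Inpp5d -1.02 (adjusted p = 0.00237) and Csk, which restrains the Src kinases, -0.62 (adjusted p = 0.0158). Ptpn11, which encodes the broadly expressed relative SHP-2, had 0.13 with the diet (adjusted p = 0.592) and 0.03 with treatment (adjusted p = 0.944), beside 1.88 and -1.17 for Ptpn6.

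Several activating twins rose with the diet as well. Of 19 listed paired activating receptors 9 were tested, 5 rose with the diet (median 2.48) and the same 5 fell with treatment (median -1.11). Trem2, the lipid receptor of lipid-associated macrophages, had 5.61 (SE 0.22, adjusted p = 5.54e-09), Cd300lb 4.82 (adjusted p = 6.00e-08) and Cd300c2 4.73 (adjusted p = 3.37e-08), beside 3.82 for Cd300a. With treatment Cd300ld had -1.66 (adjusted p = 0.00313), Cd300lb -1.59 (adjusted p = 0.00356) and Trem2 -1.59 (adjusted p = 0.0137). Pilrb1, the twin of Pilra, had 0.15 with the diet (adjusted p = 0.453). The difference between inhibitory and activating members was not tested.

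All 3 adaptors of the activating side rose with the diet. Tyrobp, which encodes DAP12, had 4.43 (SE 0.39, adjusted p = 1.40e-06), Fcer1g 3.98 (adjusted p = 6.14e-06) and Hcst 1.64 (adjusted p = 1.98e-04). With treatment Fcer1g had -1.42 (adjusted p = 0.0145) and Tyrobp -1.33 (adjusted p = 0.0176). Of 7 downstream signalling genes on which the phosphatase acts or that lie beyond, 6 rose with the diet and 6 fell with treatment. Pik3ap1 had 4.10 (SE 0.27, adjusted p = 1.27e-07), Vav1 3.07 (adjusted p = 7.76e-08) and Syk 2.92 (adjusted p = 3.98e-06). With treatment Pik3ap1 had -2.05 (SE 0.28, adjusted p = 4.61e-04), Vav1 -1.27 (adjusted p = 0.00264) and Blnk -1.27 (adjusted p = 0.00471).

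Ligands rose alongside their receptors. Of 8 tested, 7 rose with the diet (median 2.25) and 6 fell with treatment (median -1.08). The collagens bound by Lair1 led: Col3a1 had 3.96 (SE 0.63, adjusted p = 2.56e-04), Col1a1 3.76 (adjusted p = 9.10e-05) and Col1a2 2.88 (adjusted p = 9.66e-04). With treatment Col3a1 had -1.89 (SE 0.25, adjusted p = 3.83e-04), Col1a1 -1.63 (adjusted p = 9.50e-04) and Sema4d, the ligand of Cd72, -1.46 (SE 0.27, adjusted p = 0.00223). Sema4d stood at 2.08 ± 1.73 FPKM in NC (SD, n = 6), 17.2 ± 6.74 in HFD and 5.69 ± 2.65 in SZ-A (SD, n = 7 each). Cd47, the ligand of Sirpa, had the small changes of 0.63 (adjusted p = 0.00219) and -0.41 (adjusted p = 0.0152).

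Of 21 further genes listed as ITIM receptors 11 were tested, 5 rose with the diet (median 0.43) and 4 fell with treatment (median -0.31). The motifs of these 21 genes were not searched here. Clec12a had 4.01 (SE 0.25, adjusted p = 7.86e-08), Lilr4b 3.68 (SE 0.42, adjusted p = 1.59e-05) and Clec4a2 3.35 (adjusted p = 3.14e-06). Lilr4b, the copy of Lilrb4a, has 909 coding bases against 1005, and whether it keeps the motifs was not checked. It is among the genes counted as higher with the diet and in SZ-A against NC. With treatment Clec12a had -1.68 (adjusted p = 0.00139), Milr1 of mast cells and macrophages -1.27 (adjusted p = 0.00517) and Clec4a2 -1.23 (adjusted p = 0.00515). Btla and Cd5, receptors of lymphocytes, had -0.04 (adjusted p = 0.905) and -0.16 (adjusted p = 0.563) with the diet. In SZ-A against NC 4 of these receptors, 5 of the paired receptors, 2 of the adaptors, 2 of the kinases, 1 of the other effectors, 5 of the downstream genes and 1 of the ligands were called higher.

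**Figure D5:**
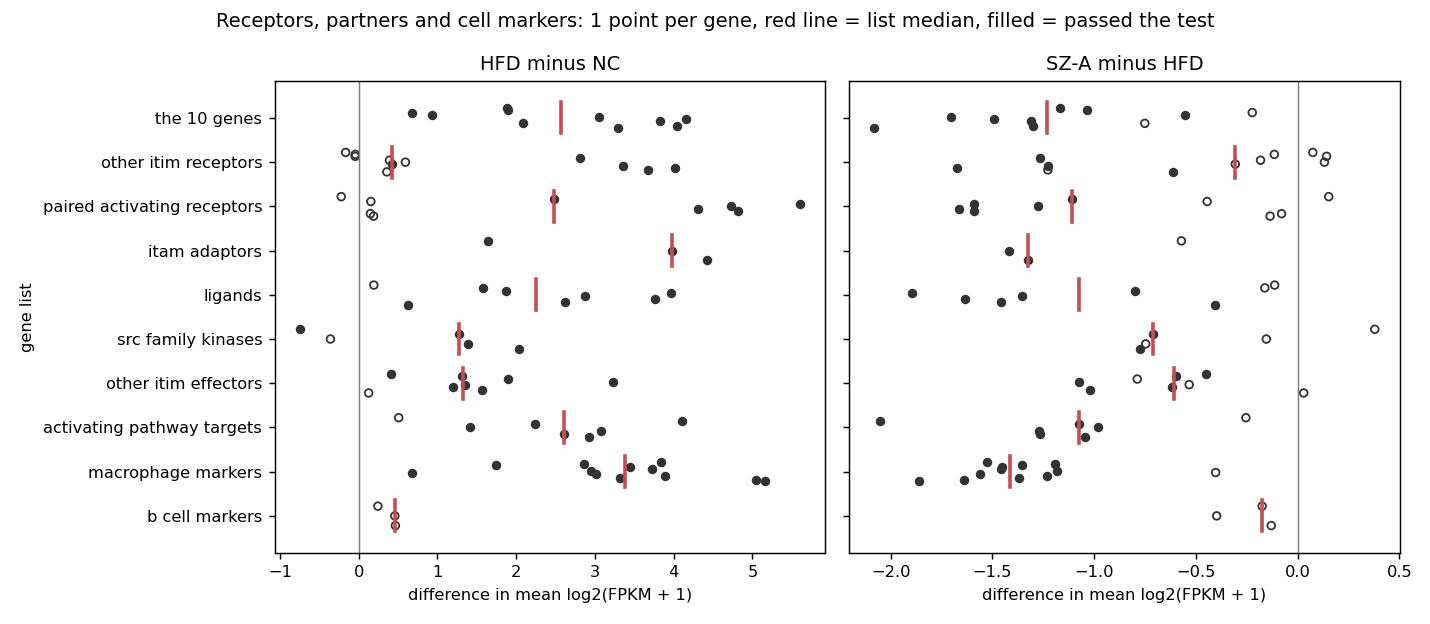
Difference in mean log2(FPKM + 1) for each tested gene of 10 lists, HFD minus NC on the left and SZ-A minus HFD on the right, with filled points for an adjusted p below 0.05 and a red line at the list median. The 10 genes have medians of 2.56 and -1.23, between those of the macrophage markers and those of the genes listed as other ITIM receptors.

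From mouse to mouse within groups the genes did not move as a block. As a description over the 20 mice, with each value taken as its deviation from the group mean of log2(FPKM + 1), Pirb and Sirpa went together most closely (correlation 0.936) and Cd33 and Ptpn6 least (-0.440). Cd72 had 0.792 with Lair1 and 0.00954 with Cd33. All pairs share the libraries and their tissue make-up. Against the mean log2 level of the 12 macrophage markers the correlation was 0.986 for Sirpa, 0.907 for Pirb, 0.597 for Cd72, 0.543 for Lair1 and 0.0718 for Ptpn6. Against the markers of lipid-associated macrophages it was 0.870 for Lair1, 0.850 for Pirb, 0.847 for Cd300a, 0.754 for Cd72 and 0.743 for Sirpa, and from 0.249 (Cd33) to 0.721 (Lilrb4a) for the other 5. The genes most like Cd72 among 12449 compared were Cdk18 (0.949), Il1rn, the interleukin-1 receptor antagonist (0.915), Kcnn4, a potassium channel (0.915), Ptpn7, a phosphatase of leukocytes (0.905), and Slamf8 (0.894).

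The start sites of the genes were read for the letters GAGGAAG, a core of the sites bound by PU.1, the myeloid transcription factor encoded by Spi1. RefSeq windows on GRCm38.p6, 250 bases before to 50 bases after the start, were at hand for 8 of the 10 genes. On either strand the letters were present in 6 of the 8 (Cd72, Pirb, Lair1, Cd300a, Cd33 and Pilra), against 15.4% of 27025 genes, and they were not in the windows of Cd22 and Ptpn6. The motif was chosen after the values were seen and a match is a description only. The 250 bases before the start are printed for Cd72 and Lair1, the genes without overlap between HFD and SZ-A mice, on the genes' strand with the match in capitals.
Cd72, chr4:43454627-43454876, minus strand: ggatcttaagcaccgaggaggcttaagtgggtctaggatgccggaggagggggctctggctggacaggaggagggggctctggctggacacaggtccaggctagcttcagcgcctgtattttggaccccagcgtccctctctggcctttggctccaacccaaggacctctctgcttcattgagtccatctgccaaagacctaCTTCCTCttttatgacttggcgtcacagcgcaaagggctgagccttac
Lair1, chr7:4063205-4063454, minus strand: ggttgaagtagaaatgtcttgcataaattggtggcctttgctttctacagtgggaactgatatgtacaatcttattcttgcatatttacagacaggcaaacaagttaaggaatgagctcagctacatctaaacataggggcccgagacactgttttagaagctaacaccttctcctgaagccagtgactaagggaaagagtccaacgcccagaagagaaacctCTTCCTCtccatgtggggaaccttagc
In both the match reads on the opposite strand. Spi1 itself stood at 4.03 ± 1.99 FPKM in NC (SD, n = 6), 91.8 ± 27.9 in HFD and 39.6 ± 26.7 in SZ-A (SD, n = 7 each).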

How the data were processed

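Poly-T selected RNA was sequenced by the authors as 150 bp paired reads, aligned with HISAT2 2.0.5 to GRCm38 and counted with featureCounts 1.5.0-p3 according to the submitters' processing notes. The authors deposited FPKM per gene for 20 mice as 1 table of 14776 genes. How reads shared between copies or overlapping genes were assigned is not given in the sources used here. The members and gene lists were chosen with earlier results of these data known. Groups and replicate numbers came from the sample titles. The numbers were not taken to pair the mice, since the labels give no pairing, and no batch was given. Each sample was taken as a separate mouse, and all value columns were used.

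FPKM were tested as log2(FPKM + 1) with limma 3.58.1 (R 4.3.3, trend), in 2-group fits of genes that averaged 0.1 FPKM or more, with Benjamini-Hochberg adjustment over all genes. A call was an adjusted p below 0.05, and the stricter rule added a log2 fold change beyond 1.5. FPKM times exon length gave whole reads (within 0.01) for 95.9 to 96.3% of values under 1000 reads, and these recovered reads were used for depth and for voom. Alternatives were a pseudocount of 0.1, no filter, an average of 1 FPKM or more, scaling by median ratios, a joint fit of the 3 groups, voom, a replicate block and leaving out each mouse. The fits were tested on simulated data. Motifs were read from translated GENCODE M21 transcripts in place of a RefSeq protein table. Text names all 10 members, up to 3 called genes per list and direction by size of change in HFD against NC and SZ-A against HFD, the 5 genes most like Cd72, and markers where their list stands beside a result. Tesk1, Glipr1, Cd47, Sema4d, Ptpn11, Pilrb1, Btla, Cd5 and Spi1 were added after their values were seen. Pira2, which had no values, was named only as a copy of Pirb. An item of the kinase list is not reported here.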

Additional observations from a re-analysis of the deposited data

Results flagged for a closer look

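In 3 of the 30 sets of 1 gene in 1 group, a single mouse lay far from the others by Dixon's test at the 95% level, a test that flags about 1 in 20 sets by chance. Pirb was 72.7 FPKM in SZ-A replicate 5, with the other 6 mice between 8.59 and 33.7. Lilrb4a was 21.1 FPKM in the same mouse, with the others between 0.727 and 6.95. This mouse also had the highest macrophage markers of its group (4803 FPKM summed) and the highest mitochondrial share (11.6%), and their part in the 2 values was not tested. Cd33 was 4.27 FPKM in HFD replicate 1, with the other 6 between 1.67 and 2.57.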

How the results depend on the processing

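The 8 members called lower in SZ-A than in HFD numbered 7 to 8 under the other settings and 6 to 9 without single mice, and the 10 called higher in HFD than in NC numbered 9 to 10, Cd33 being the gene lost. All 210 fitted differences between SZ-A and HFD kept their direction. The comparison of SZ-A with NC was the least settled. With a replicate block, 1 of the 5 members called higher there was kept (Cd300a), with adjusted p-values of 0.0504 for Pirb, 0.0519 for Sirpa, 0.0592 for Lair1 and 0.0906 for Cd72, and genes called higher went from 611 to 152. Same-numbered mice had correlations of their deviations from -0.41 to 0.58 in that comparison. For replicate 4 they were 0.58 there, 0.37 in SZ-A against HFD and 0.30 in HFD against NC. The labels give no pairing, and these few correlations cannot settle whether the numbers pair mice. With all 3 groups in the fit 1153 genes were called, and without single mice 396 (without NC replicate 2) to 713, with 400 without SZ-A replicate 6. Members called numbered 4 to 6 without single mice. Cd22 passed with a pseudocount of 0.1 (adjusted p = 0.0437) and with all 3 groups (0.0110). Depth limits Cd22, Pilra, Lilrb4a and Cd72 most, with 3, 4, 8 and 13 reads in their lowest NC mouse. Members past the stricter rule went from 3 to 6 (pseudocount 0.1), 5 (voom) and 1 (replicate block) in SZ-A against NC, and from 2 to 4 (voom) in SZ-A against HFD. In HFD against NC they went from 8 to 9 with a pseudocount of 0.1 or with voom, Pilra being the gene gained.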
